A study of Drosophila melanogaster with 2 samples.

Results

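The regions described here are the weak CTCF peaks at coding promoters that are not divergent: 1967 of the 5443 reproducible peaks (36.1%). They were selected on 2 measured values, the peak's signal and its position. The signal had to lie below 1000, and the summit had to lie within 1 kb of a protein-coding transcript start without falling between the starts of a head-to-head coding pair at most 1000 bp apart. The signal is the authors' value per peak, whose scale is not stated in the file headers, so the low signal and the closeness to a start are not results.

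The sequenced DNA came from chromatin of whole Drosophila melanogaster embryos of both sexes, collected at an age of 0 to 16 h. The flies carry a transgene that makes CTCF with GFP at its C terminus, and chromatin was precipitated with an anti-GFP antibody. There is 1 group, CTCF-GFP embryo, with biological replicates numbered 2 and 3, and no untagged embryos or control libraries were analysed here. The depth in reads is unknown. Intervals therefore cover only the counting error over peaks, starts or genes, and a p-value speaks of the peaks on these lists, not of how embryos vary.

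CTCF is a DNA-binding protein with a row of zinc fingers that recognise a GC-rich core sequence. It sits at insulators and domain borders, and in flies it works with partners such as Cp190 that have no such core of their own. Fly promoters of broadly active genes often carry the DRE, bound by Dref and BEAF-32, or Motif 1, bound by M1BP, and promoters of genes with restricted activity more often carry a TATA box or an initiator.

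The stretches below show what lay under the summits: the 2 weak peaks with the highest signal for the exact CTCF core, for the DRE, for Motif 1, for Ohler motif 6 (a promoter motif named by its number) and for none of these, on chromosomes that may be shown. Each is read 5′ to 3′ on the strand of the nearest gene, from the RefSeq assembly of dm6. The capitals mark the motif, or the summit base where there is none. Exon bases were left out, except that a motif lying in an exon is shown in 30 bases. The first 2 carry the CTCF core in the reverse direction; 4 spellings were searched, AGAGGGCGC, AGATGGCGC, AGGGGGCGC and AGGTGGCGC, all on both strands.
CG16852, chr2L:13540874-13540903, plus strand: tagcatcagaGCGCCATCTattggctggaa
CG34417, chrX:6541423-6541523, plus strand: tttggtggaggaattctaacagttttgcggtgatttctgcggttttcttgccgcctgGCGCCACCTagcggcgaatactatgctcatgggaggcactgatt
Pep, chr3L:17645064-17645164, minus strand: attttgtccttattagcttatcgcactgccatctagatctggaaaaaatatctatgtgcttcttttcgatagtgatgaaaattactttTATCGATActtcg
Ubc4, chr3L:9698258-9698335, plus strand: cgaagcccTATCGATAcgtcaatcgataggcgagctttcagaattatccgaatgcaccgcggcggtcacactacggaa
Btk, chr2L:8301047-8301076, minus strand: actcgaagtgcGGTCACACtgcaaagaagt
Sxl, chrX:7098125-7098225, minus strand: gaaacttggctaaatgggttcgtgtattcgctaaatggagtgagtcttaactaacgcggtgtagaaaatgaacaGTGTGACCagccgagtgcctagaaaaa
Rim2, chr2L:1724427-1724527, minus strand: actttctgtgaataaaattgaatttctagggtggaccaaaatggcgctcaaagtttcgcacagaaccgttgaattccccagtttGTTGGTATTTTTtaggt
CG1239, chr3R:5733432-5733512, plus strand: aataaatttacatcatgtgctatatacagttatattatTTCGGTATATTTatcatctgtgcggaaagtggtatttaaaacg
CG13893, chr3L:604870-604970, minus strand: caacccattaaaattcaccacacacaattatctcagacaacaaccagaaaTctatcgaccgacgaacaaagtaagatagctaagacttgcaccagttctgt
CG17378, chr2L:6773848-6773948, plus strand: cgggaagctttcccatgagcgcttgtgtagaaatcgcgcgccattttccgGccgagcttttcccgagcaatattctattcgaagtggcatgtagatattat

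CG16852 had a signal of 959 on the reproducible list (431 in replicate 2, 525 in replicate 3), and its core lay in coding sequence with its centre 137 bp past the start. At CG34417 the signal was 919 (445 and 486 in the replicates) and the core lay in an intron, 713 bp past the start. The DRE peaks sat upstream and close to their starts. Pep, a gene for a zinc finger protein found on chromosome puffs, had a signal of 807 (361 and 442), with the centre of its DRE at -36.5 bp from the start (negative is upstream). Ubc4, which encodes a ubiquitin-conjugating enzyme, had 739 (359 and 367), with the DRE at -66.5 bp and a Motif 1 in the same window. Btk, a tyrosine kinase gene, had a signal of 940 (451 and 485) with Motif 1 on the gene's own strand 17.5 bp past the start. Sxl, the master gene of sex determination, had 917 (435 and 480) with Motif 1 on the opposite strand at -94.5 bp. The Ohler motif 6 peaks were the weakest of those shown, at 413 for Rim2 (204 and 204) and 406 for CG1239 (243 and 156). The last 2, CG13893 and CG17378, had the highest signals of all 1967 and none of these motifs, although CG17378 held the CTCF core at 1 mismatch.

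Signals within the set ran from 196 to 999 with a median of 298. Low values were the most common: 624 peaks (31.7%) lay below 250, 377 between 250 and 300, 402 between 300 and 400, 343 between 400 and 600, and 221 (11.2%) at 600 or more. Together the set held 6.61% of the summed signal of all reproducible peaks, while the 396 strong peaks at the same kind of promoter, with a signal of 1000 or more, held 35.4%. Just below the limit stood CG13893 (999), CG17378 (998), CG1888 (997), tun (993.8) and Ehbp1 (993). Just above it stood mthl9 (1004), Rbp6 (1004), AcCoAS (1006), CG42544 (1014) and Bap170 (1025). The lower edge was set by the authors' reproducible list and not by the rule: bip1, Mhcl, CG15211, Kank and Df31 closed the set at 195.8, 195.7, 195.6, 195.5 and 195.5, and the pooled list of both replicates went on below it at 195.5 for CG5504 and 195.4 for chas and Akap200. The set was spread over the arms much as coding genes are, with between 13.2 peaks per 100 coding genes on 3R and 14.98 on X.

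In both replicates' own lists a summit within 100 bp was found for 1876 of the 1967 peaks (95.4%), with 47 matched only in replicate 2, 40 only in replicate 3 and 4 in neither. Since the reproducible list was made from the agreement of these replicates, the match is a description. In the matched peaks the signal ran from 31.8 to 511 in replicate 2, with a median of 149, and from 32.7 to 698 in replicate 3, with a median of 157. The log2 ratio of replicate 3 to replicate 2 had a median of 0.08 and an SD of 0.47 across peaks, against an SD of 0.17 in the strong coding promoter peaks. The ratio was over 2-fold in 90 weak peaks (4.80%) and in 0 of the 392 matched strong ones. It narrowed with signal inside the set, from an SD of 0.58 below 250 to 0.28 at 600 or more. Only 31.7% of the peaks below 250 were among the 5443 strongest of both replicates, against 83.0% between 250 and 300 and 99.5% at 600 or more.

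**Figure D1:**
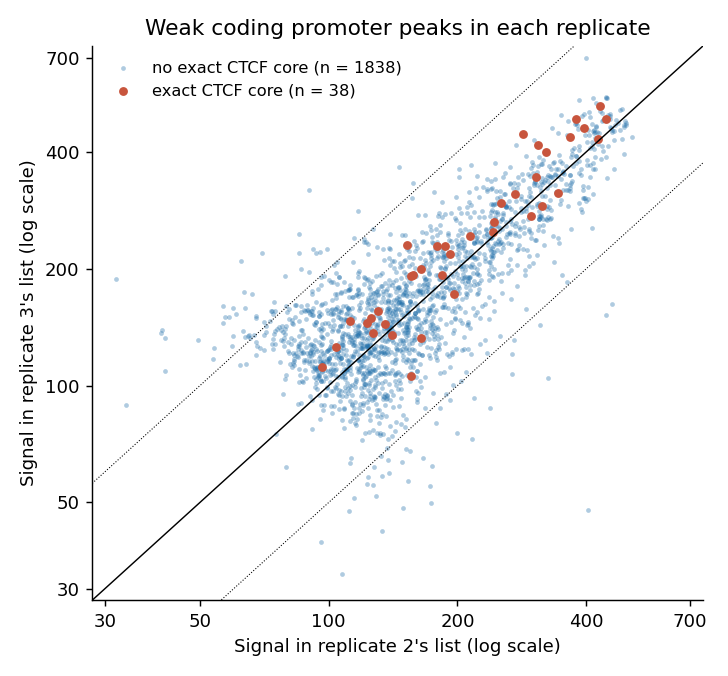
Signal of each weak coding promoter peak in replicate 2's list (x axis) and replicate 3's list (y axis), both on log scales without a stated unit, for the 1876 peaks matched in both. The solid line marks equal signals and the dotted lines 2-fold differences; the 38 peaks with an exact CTCF core (red) lie between the dotted lines, and the points spread widest at low signal.

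Among the peaks that differed most between replicates, 5 were higher in replicate 3. CG18135 had 31.8 in replicate 2 and 189 in replicate 3, a log2 ratio of 2.57. Dll, the homeobox gene that specifies limbs, had 90.1 and 320 at a summit 112 bp upstream of the start. CG13917 had 40.9 and 139, CG5346 had 40.5 and 136, and tai, a coactivator gene of the ecdysone receptor, had 62.3 and 209. The 5 highest in replicate 2 were Spn77Bb (405 and 47.9), ovo (173 and 49.99), ktub (108 and 32.7), Df31 (133 and 42.3) and CG6225 (173 and 55.1). Spn77Bb and ovo overlapped a strong peak. A second weak peak at Dll, 625 bp upstream, went the other way, with 445 in replicate 2 and 152 in replicate 3. At Dll each replicate thus gave its higher signal to another summit.

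Summits sat just upstream of the start. The median position was 75 bp upstream of the nearest coding start, with quartiles at 239 bp upstream and 10 bp downstream, and 42.8% of the summits fell in the 200 bp before it. Strong coding promoter peaks had their median at -210.5 bp. Summits within 100 bp of a start made up 39.8% of the weak set and 19.7% of the strong one, and within 250 bp 64.5% and 42.2%. Downstream of the start lay 555 weak summits (28.2%, 95% Wilson interval 26.3 to 30.2%) and 73 strong ones (18.4%, 14.9 to 22.6%). These shares are descriptions, since the rule takes out summits between head-to-head starts, and 690 of the 773 weak ones it took out lay upstream. With such summits kept in both sets, 23.1% of 2740 weak and 16.1% of 479 strong summits lay downstream, a difference of 7.06 percentage points (odds ratio 1.57). This alternative was chosen after seeing the data, so it too is a description. With those summits left out and only the most upstream coding start of each gene used, the downstream shares were 39.3% and 19.8%, a difference of 19.5 percentage points in place of 9.78, in the same direction.

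**Figure D2:**
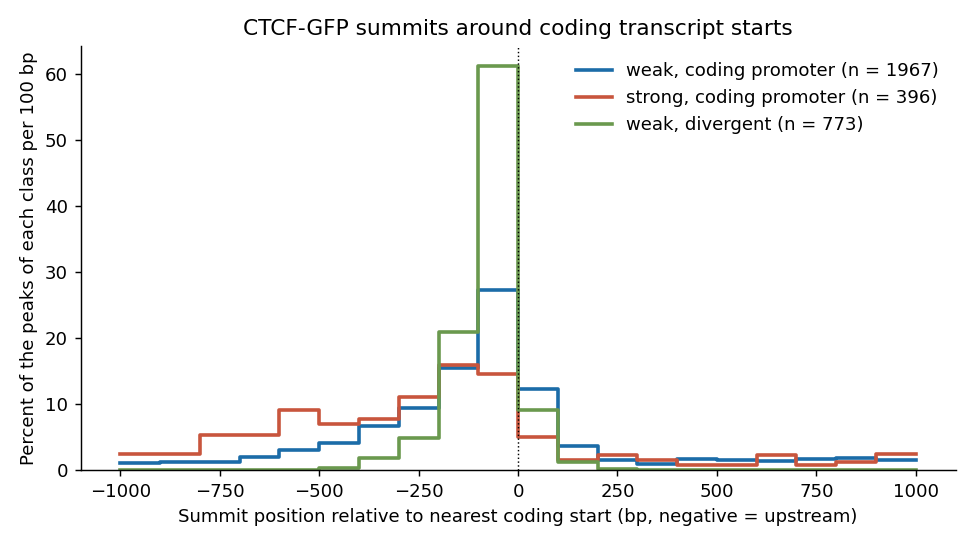
Percent of summits per 100 bp (y axis) by position relative to the nearest coding start (x axis, bp, negative upstream) for weak coding promoter peaks, strong coding promoter peaks and weak divergent peaks. The weak coding promoter peaks reach their maximum in the last 100 bp before the start, with 39.8% of summits within 100 bp, while the strong peaks are spread further upstream with a median of -210.5 bp.

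By annotation, 866 weak summits (44.0%) lay between genes, 575 (29.2%) in introns, 428 (21.8%) in untranslated exons of coding genes, 59 (3.00%) in coding sequence and 39 (1.98%) in exons of noncoding genes. A summit could lie upstream of its own gene and inside a neighbour: 228 (11.6%) were inside another coding gene. Most peaks had 1 coding gene that starts within 1 kb, 1680 (85.4%), with 268 having 2 and 19 having 3 or more. The rule raises this share, since 0 of the 773 weak summits between head-to-head starts had 1 such gene only. Strong coding promoter peaks, under the same rule, stood at 90.2%. CG15535 on 3R had 4, one of them the mitochondrial ribosomal protein gene mRpS18C, with a reproducible signal of 601 (replicate 2, 298; replicate 3, 307). Targ1, RpL10Ab, CG32814 and CG43324 had 3 each, at signals of 578, 430, 410 and 376. The rule removes summits between head-to-head starts, so the neighbours were counted only over genes in no such pair. Of 1399 such genes with a weak peak, 912 (65.2%) followed a coding gene on the same strand, against 5054 of all 8893 such genes (56.8%). The median gap to that neighbour was 434.5 bp and 561.5 bp. The other classes were starts inside another coding gene, at 12.2% and 19.8%, and a neighbour on the opposite strand, at 22.6% and 23.3%. The larger tandem share thus went mainly with fewer starts inside another gene.

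The listed width of the weak peaks had a median of 436 bp, against 726 bp for the strong coding promoter peaks, and most overlapped no other listed peak. Of the 1967, 1470 (74.7%) had one and the same listed width of 436 bp, against 2 of the 396 strong ones (0.505%). The other weak sets shared this width, with 81.5% of weak divergent and 70.5% of weak intronic peaks. Another listed peak of any signal overlapped 253 of the 1967 (12.9%), against 22.0% of strong coding promoter, 11.6% of weak divergent and 7.94% of weak intronic peaks. A strong peak overlapped 49 of the 1967 (2.49%), as it did 1.16% of weak divergent and 2.83% of weak intronic peaks. A strong summit lay within 1 kb of 63 (3.20%).

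The exact CTCF core was rare. Windows reaching 50 bp to either side of the summit held it in 38 weak peaks (1.93%, 1.41 to 2.64%) and in 149 strong coding promoter peaks (37.6%, 33.0 to 42.5%), an odds ratio of 0.0327 (0.0218 to 0.0483; Fisher's exact test, Benjamini-Hochberg adjusted over 39 tests of 13 motifs against 3 sets, p = 1.00e-88). In windows of equal width 500 bp to either side of the weak summits the share was 0.102%, and at coding starts with no listed summit within 1 kb it was 0.106% of 14213. Weak divergent peaks carried it less often still (2 of 773, 0.259%, odds ratio 7.59, 1.95 to 65.1, exact adjusted p = 0.00121). The weak intronic peaks, over 1 kb from any start, carried it in 79 of 882 (8.96%, odds ratio 0.200, 0.131 to 0.302, exact adjusted p = 2.36e-15). With at most 1 mismatch the shares were 9.20% in the weak peaks, 66.2% in the strong ones and 5.11% in the weak peaks' flanks.

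The 38 core peaks differed from the rest of the set in several measured ways, given here as descriptions. Their median signal was 425, against 295 for the 1786 peaks with no core within 1 mismatch, and all 38 were matched in both replicates. Their log2 ratio between replicates had an SD of 0.23, against 0.48 for those 1786. At signals of 400 or more the SDs were 0.20 for 22 core peaks and 0.33 for 492 peaks without one. The core lay a median of 13.5 bp from the summit but far from the start, with only 10 of 38 centred within 100 bp of it. It pointed the same way as the gene in 18 of 38. After CG16852 and CG34417 the highest were Fim (868; 379 in replicate 2 and 486 in replicate 3), the gene of the actin bundler fimbrin, and Cluap1 (864; 395 and 462). Within the set the share of peaks with an exact core was 0.481% (3 of 624) below a signal of 250 and 4.98% (11 of 221) at 600 or more, and in the 117 strong coding promoter peaks between 1000 and 2000 it was 11.97% (7.26 to 19.1%). At most 1 mismatch gave 6.73%, 14.5% and 33.3% in the same ranges. The DRE stood at 4.17% (2.86 to 6.04%) below 250 and 2.26% (0.970 to 5.19%) at 600 or more. Motif 1 stood at 3.85% (2.60 to 5.66%) and 3.17% (1.54 to 6.39%). For both motifs the intervals overlapped. None of the 38 had a DRE, Motif 1 or Ohler motif 6 in the window.

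**Figure D3:**
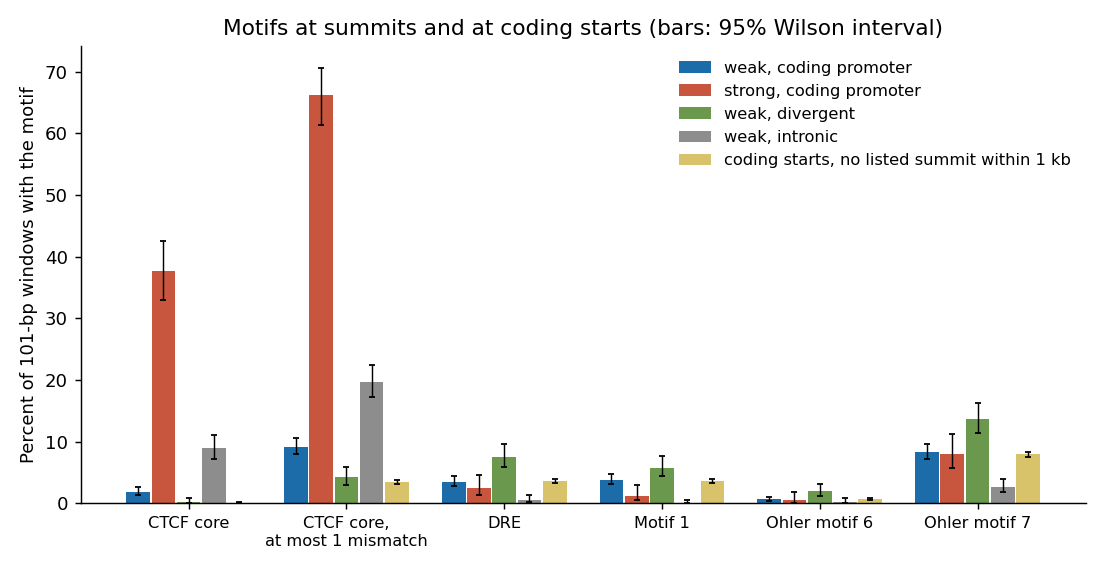
Percent of windows reaching 50 bp to either side with each motif (y axis) for weak coding promoter peaks, the 3 comparison sets of peaks and coding starts with no listed summit within 1 kb; bars show 95% Wilson intervals. The exact core is at 1.93% in the weak coding promoter peaks and 37.6% in the strong ones, while the DRE is at 3.56% and 2.53%.

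The DRE (TATCGATA) lay in 70 weak peaks (3.56%), against 10 strong ones (2.53%), and this difference did not pass (odds ratio 1.42, 0.722 to 3.13, exact adjusted p = 0.522). The DRE was less frequent than in weak divergent peaks (7.503%, exact adjusted p = 0.000157) and more frequent than in weak intronic peaks (0.567%, exact adjusted p = 2.43e-06). Weak intronic peaks were chosen to lie over 1 kb from any start, so tests of promoter motifs against them cannot be separated from position. Weak divergent summits lay closer to starts, with 70.4% within 100 bp against 39.8%, and distance was not matched there either. Motif 1 (GGTCACAC) lay in 76 weak peaks (3.86%) and 5 strong ones (1.26%), an odds ratio of 3.14 (1.28 to 10.02, exact adjusted p = 0.0161). That call was lost at start distances of 500 bp, at a signal limit of 2000, at a pair gap of 2000 bp and in a motif window of 25 bp (exact adjusted p values 0.0521, 0.115, 0.0719 and 0.431). Motif 1 did not pass against weak divergent peaks (5.82%, odds ratio 0.650, 0.439 to 0.972, exact adjusted p = 0.0681) and was rarer in weak intronic ones (1 of 882, exact adjusted p = 1.38e-10). Ohler motif 7 lay in 163 weak peaks (8.29%) and 8.08% of strong ones (odds ratio 1.03, 0.687 to 1.58, exact adjusted p = 1). Ohler motif 6 lay in 13 (0.661%), fewer than in weak divergent peaks (1.94%, exact adjusted p = 0.0140).

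Other motifs also differed between the sets. GAGAG, the GAGA factor's letters, lay in 12.8% of the weak coding promoter peaks and 7.37% of weak divergent peaks (exact adjusted p = 0.000168). Windows 500 bp to either side held it in 13.7% and 11.9%, so the weak coding promoter peaks were not above their own flanks. The pause button, a downstream element of paused promoters, lay in 6.66%, against 3.49% of weak divergent (exact adjusted p = 0.00327) and 3.63% of weak intronic peaks (exact adjusted p = 0.00353). Its shares in the flanks of these 3 sets were 6.35%, 8.09% and 3.17%, so here too the weak coding promoter peaks were near their flanks. The E-box form CAGCTG lay in 6.96% and in 3.74% of weak intronic peaks (exact adjusted p = 0.00211), with 4.80% and 4.88% in their flanks. The Pho letters GCCAT lay in 16.7% against 38.4% of strong peaks (exact adjusted p = 7.90e-19), but these letters also stand within one spelling of the CTCF core on its other strand. In all, 1 motif was more and 2 were less frequent than in strong coding promoter peaks, 3 and 3 against weak divergent peaks, and 5 and 1 against weak intronic peaks, of 13 each. The last 2 sets were defined by their position, so these counts cannot be told apart from distance to a start. The GC content of the windows, which bears on every such share, had medians of 40.6% in the weak set, 43.6% in the strong, 37.6% in the weak divergent and 36.6% in the weak intronic set, and its part in these shares was not tested. For 850 weak peaks (43.2%) none of the motifs searched, the 1-mismatch core included, lay in the window. This share was counted in the weak coding promoter peaks alone, so it cannot be called particular to them. Ehbp1 (993), CG13707 (973), unk (960) and goe (951) had the highest signals among the 850.

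The promoter motifs became rarer with distance from the start. In the 782 peaks within 100 bp of a start the DRE lay in 7.67% (6.01 to 9.75%), Motif 1 in 8.31% (6.57 to 10.5%) and Ohler motif 7 in 15.7% (13.3 to 18.4%). Between 100 and 250 bp the shares were 1.44%, 1.65% and 3.70%. Beyond 500 bp the DRE lay in 0 of 333, which allows a share of up to 0.901%, and Motif 1 in 2. The core with at most 1 mismatch lay in 8.57% within 100 bp, 7.41% between 100 and 250 bp, 8.20% between 250 and 500 bp and 14.4% (11.0 to 18.6%) beyond 500 bp, so it was higher in the last range alone. Motif 1 ran in the direction of the gene in 54 of 76 peaks (71.1%, 60.0 to 80.0%), Ohler motif 6 in 12 of 13 and Ohler motif 7 in 111 of 163 (68.1%, 60.6 to 74.8%). After Pep and Ubc4 the DRE peaks with the highest signal were CheB93a (721) and Karybeta3 (692), and after Btk and Sxl the highest with Motif 1 was yrt (820), which encodes an epithelial polarity protein. After Rim2 and CG1239 the Ohler motif 6 peaks were Pli (391) and Kdm2 (365), a histone demethylase gene.

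Windows centred on the starts, and not on the summits, gave the same measure for promoters with and without a peak. Motif 1 lay within 50 bp of 13.6% (11.3 to 16.1%) of the 782 starts that had a weak peak within 100 bp, and of 3.57% (3.28 to 3.89%) of the 14213 coding starts with no listed summit within 1 kb. The DRE stood at 8.82% (7.03 to 11.0%) and 3.67% (3.37 to 3.99%), and Ohler motif 7 at 18.4% (15.9 to 21.3%) and 7.95% (7.52 to 8.41%). The TATA box was the reverse, at 2.94% (1.97 to 4.37%) of the starts with a weak peak and 9.12% (8.66 to 9.60%) of those without. The initiator lay at 14.8% (12.5 to 17.5%) and 24.4% (23.7 to 25.2%). Over all 1823 starts nearest to a weak peak, with no limit of 100 bp, the initiator stood at 22.2% (20.4 to 24.2%), close to the starts without a summit. In those 1823 Motif 1 was at 8.17%, the DRE at 5.92%, Ohler motif 7 at 12.3%, the TATA box at 3.95% and the pause button at 15.7%. Starts nearest to weak divergent peaks, also with no such limit, stood at 9.93% for the DRE, 10.6% for Motif 1 and 2.75% for the TATA box. The pause button was at 7.45% (5.80 to 9.53%) there and at 13.04% (10.9 to 15.6%) at the starts with a weak coding promoter peak within 100 bp. These shares are descriptions with no test, chosen after the values at the summits were seen, and alternative starts of 1 gene are counted separately.

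**Figure D4:**
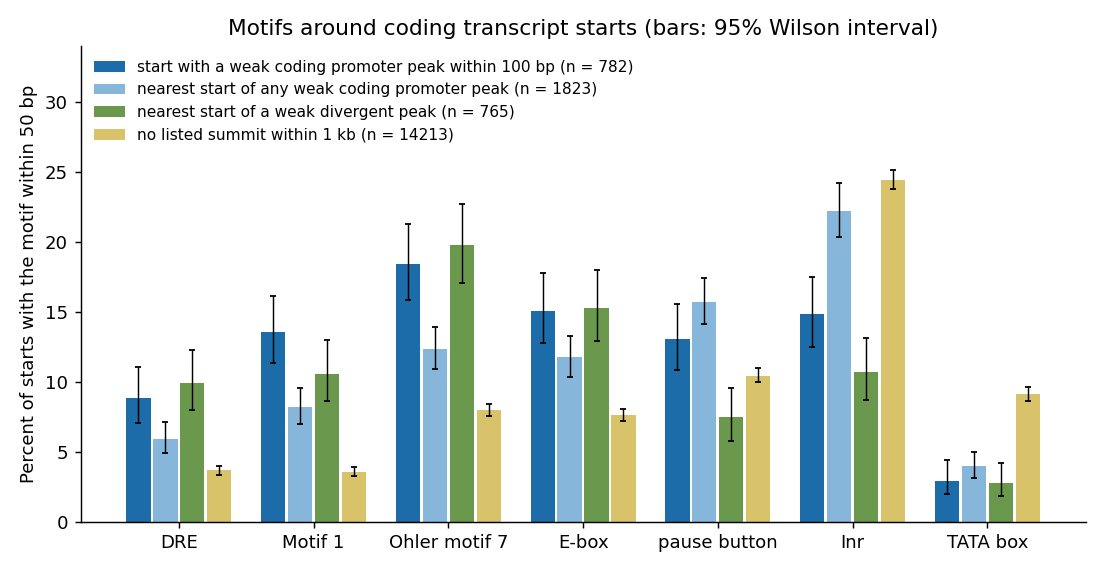
Percent of coding transcript starts with each motif within 50 bp (y axis) for 4 groups of starts, with 95% Wilson intervals. Starts with a weak coding promoter peak within 100 bp stand at 13.6% for Motif 1 and 2.94% for the TATA box, against 3.57% and 9.12% at starts with no listed summit within 1 kb.

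Of the 13945 protein-coding genes, 1972 (14.1%) had a weak coding promoter peak within 1 kb of a start. The nearest starts belonged to 1704 genes, of which 230 had 2 or more such peaks. The most at any gene were 5, at brwl and Rtnl1 on 2L, named here after their values were seen. At brwl the signals were 725 (404 in replicate 2 and 303 in replicate 3), 496 (246 and 258), 237 (142 and 94.8), 223 (120 and 129) and 196 (41.4 and 109). Replicate 2 was the higher at the peaks of 725 and 237, and replicate 3 at the other ones. The listed peaks of 725 and 223 overlapped each other, as did those of 496 and 196, so these are not all separate regions. Rtnl1, the reticulon gene of the endoplasmic reticulum, had signals of 250, 234, 271, 647 and 873, each upstream of the nearest of its starts. A strong coding promoter peak stood at 95 of the 1972 genes (4.82%), against 407 of all 13945 coding genes (2.92%).

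Among genes of protein synthesis the shares differed widely. Of 93 cytoplasmic ribosomal protein genes and named paralogs, 31 had a weak coding promoter peak (33.3%, 24.6 to 43.4%), with a median signal of 426. RpL22 was the highest at 963, with 490 in replicate 2 and 469 in replicate 3, 86 bp upstream of the start. RpLP2 followed at 710 (275 and 418), RpS3 at 676 (385 and 295) and RpL30 at 633 (277 and 345). The summit of RpL30 lay 2 bp past the start and its window held Motif 1. At 7 of the 31 genes the peak held a DRE, Motif 1 or Ohler motif 6, and at 0 it held the exact CTCF core. Over all 1967 peaks, 151 (7.68%) held one of these promoter motifs and 1.93% held the exact core, so 0 of 31 is near the share of the whole set. Distance to the start was not matched in this comparison. Within 100 bp of a start the DRE lay in 7.67% and Motif 1 in 8.31% of the 782 weak peaks. Besides RpL30 the 7 were RpL37A (591), RpLP1 (543) and RpL27A (269) with Motif 1, and RpL27 (490), RpS29 (327) and RpS12 (322) with a DRE, named after their values were seen. Each of these summits lay at most 10 bp from the gene's start. Translation factors stood near the background, with 9 of 53 (17.0%), led by eIF6 at 663, eEF1gamma at 635 (with a DRE), eIF4G2 at 531 and eIF3f1 at 354 (with a DRE). Mitochondrial ribosomal proteins had 9 of 73 (12.3%), led by mRpL13 at 922, mRpS18C at 601, mRpL33 at 498 and mRpL22 at 264. Aminoacyl-tRNA synthetases had 2 of 34 (5.88%), LeuRS-m at 384 and CysRS at 269.

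The architectural protein, cell cycle and Polycomb and Trithorax lists also had shares above 14.1%, although the interval of the last reached below it. The cohesin and condensin list had no gene with a weak coding promoter peak. Of 22 architectural protein genes 8 had a weak peak (36.4%, 19.7 to 57.0%). The zinc finger gene pita had 648, with 301 in replicate 2 and 333 in replicate 3, 511 bp past the start. A single peak of 476 (240 and 257) lay within 1 kb of both Ibf1 and Ibf2, the partner insulator binding factors, and so counts for 2 genes. The bromodomain gene fs(1)h had 309. Of 36 cell cycle genes 11 had one (30.6%, 18.004 to 46.9%). Cdk4, the partner of cyclin D, had 848 (427 and 420), CycB3 had 411 with Motif 1, Dp had 393 and CycE 338. The string gene stg, the mitotic Cdc25 phosphatase, had 268 (155 and 106) with an exact CTCF core in the window of its summit, 47 bp upstream. Of 37 Polycomb and Trithorax group genes 9 had one (24.3%, 13.4 to 40.1%). They were led by the Polycomb gene ph-p at 943 (450 and 499), the remodeller subunit gene osa at 817 (463 and 361), the methyltransferase gene trx at 621 (301 and 328) and ph-d at 584 (316 and 268). The 17 cohesin and condensin genes had 0, which allows a share of up to 17.6%. A listed summit of any kind lay within 1 kb of a start at 5 of these 17 (29.4%), against 27.3% of all coding genes. By that count the architectural list stood at 68.2%, the cell cycle list at 52.8% and the Polycomb and Trithorax list at 51.4%.

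The intervals of the remaining lists held 14.1% or lay below it. Oxidative phosphorylation had 18 of 92 (19.6%, 12.7 to 28.8%), led by UQCR-Q at 739, ATPsynC at 602, SdhC at 371 and ATPsynE at 345. The proteasome had 6 of 48 (12.5%), and its highest peak, Rpt4R at 732 (309 and 417), held an exact CTCF core; Rpn10 had 675, Rpt6 328 and Prosalpha5 241. Mediator had 5 of 29 (17.2%), between 227 at MED19 and 286 at MED6. Synapse and channel genes had 5 of 27 (18.5%), led by the neuronal RNA-binding protein gene elav at 850 (438 and 402), then dlg1 at 375 with an exact core, Syx1A at 314 and Sh at 290. Muscle genes had 4 of 27 (14.8%), Zasp52 at 391, Tm1 at 365, Msp300 at 283 and bt at 197. Segmentation and Hox genes had 3 of 37 (8.11%): Dll at 509, gsb-n at 330 (99.2 and 225) and Abd-B at 317 (146 and 177) with Motif 1. Cuticle genes had 6 of 70 (8.57%), led by Cpr51A at 886, Cpr31A at 490, Cpr47Ec at 241 and Cpr67Fa2 at 239. Chemosensory receptors had 2 of 179 (1.12%, 0.307 to 3.98%), Or88a at 267 and Gr97a at 202. The peaks counted for ATPsynE, MED6, Cpr51A and Or88a lay nearest another gene's start, at 785, 30, 902 and 658 bp from their own. The same held in the lists above for mRpS18C, mRpL22, eIF4G2, LeuRS-m and Ibf2, at 72, 521, 93, 993 and 669 bp. Among further genes counted, it held for the ribosomal protein genes RpS21 and RpL34b, at 982 and 922 bp. These counts carry no test, genes that share a peak are not independent, and promoters of divergent pairs, which count in the 13945, could hold a member only outside the pair.

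**Figure D5:**
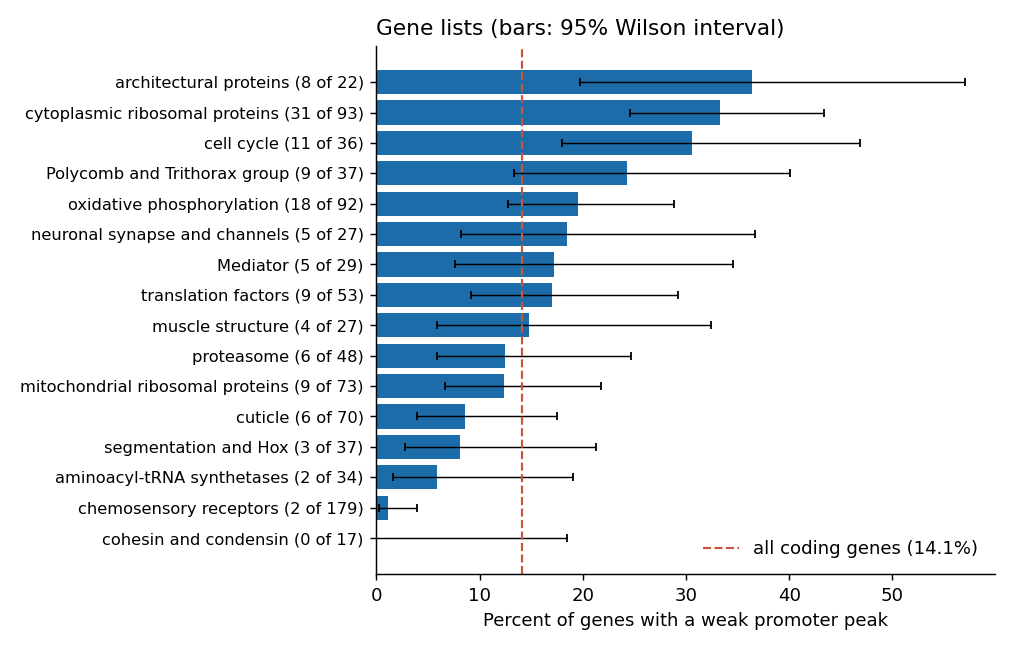
Percent of the genes of each list with a weak coding promoter peak within 1 kb of a start (x axis), with 95% Wilson intervals and the number of genes in brackets. The dashed line is the share over all coding genes, 14.1%; architectural proteins, cytoplasmic ribosomal proteins and cell cycle genes stand at 30.6 to 36.4%, and chemosensory receptors at 1.12%.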

How the data were processed

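The authors deposited peak lists on dm6, per the notes deposited with the files: 1 list per replicate, 1 of both replicates pooled and 1 thresholded by the irreproducible discovery rate. The signal per peak is the authors' deposited value with no stated scale. Those notes say that a control entered the lists. The sources used here do not name the aligner or the peak caller, nor the read depth, and lists on the older build were not used here. Coding starts came from Ensembl release 115 with BDGP annotation 6.54, and sequence from the RefSeq assembly of dm6; every dm6 peak on an arm ended within it. All coding transcript starts were used, and a head-to-head pair needed 2 different genes.

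Motif matches on either strand, at most 50 bp from a summit, were counted per peak and tested with two-sided Fisher's exact tests, with Benjamini-Hochberg adjustment over 39 tests, a threshold of 0.05 and 95% Wilson or exact intervals. Where an upper limit is given for a count of 0, it is 3 counts of the total and not a Wilson limit. Replicate summits were matched within 100 bp. The members and lists were chosen with earlier results of these data known. Named were the members nearest the signal limit, the lowest, those that differed most between replicates, those with the most genes nearby, and up to 4 with the highest signal per motif and gene list. Windows centred on starts, the genes with the most members and 3 of the alternatives were added after values were seen. The alternatives changed the distance, signal limit, pair gap, motif window and letters, merged overlapping peaks, used 1 start per gene, or used 1 replicate's list. The code was tested on simulated data. Python 3.11.15, numpy 2.4.6, pandas 2.3.3, scipy 1.17.1 and matplotlib 3.10.9 were used.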

Additional observations from a re-analysis of the deposited data

How the results depend on the processing

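The number of peaks moved to 1156 with starts within 200 bp and was 2740 with divergent summits kept and between 1443 and 2171 under the other 11 settings; it was 1924 and 2051 when the 5443 strongest peaks of replicate 2 or replicate 3 replaced the reproducible list. The CTCF core share stayed below that of strong coding promoter peaks past the threshold under all 15 settings, by 20.7 to 57.0 percentage points. The downstream share, described with divergent summits left out by the rule, was higher by 7.06 points with them kept in both sets and by 8.07 to 19.5 points under the other 12 settings, which left them out. The DRE difference, 1.03 points and not past the threshold, passed at a signal limit of 500 (1.87 points, exact test, adjusted p = 0.0461) and changed sign with starts within 200 bp (-0.413 points) and a motif window of 25 bp (-0.0883 points), where it did not pass; the cause was not tested. The Motif 1 difference, 2.60 points, kept its direction but missed the threshold with starts within 500 bp (3.04 points), at a signal limit of 2000 (2.26), at a pair gap of 2000 bp (2.13) and in a window of 25 bp (0.920). Leaving out replicate 3 gave 2.53 points for Motif 1, 0.587 for the DRE, -34.1 for the core and 11.4 for the downstream share. Leaving out replicate 2 gave 3.07, 0.881, -36.3 and 12.6 points in the same order. The settings without peaks that overlap a strong one, and with peaks in the top ranks of both replicates only, were chosen after seeing the data and ended no call. The setting with divergent summits kept was also chosen then, and served only for the number of peaks and the downstream share. No paired analysis was possible because there is 1 group. Read depth was unknown, so no limit from it could be set.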
